A study of Danio rerio with 19 samples.

Results

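The genes described are transcription factors that mark glutamatergic, that is excitatory, neurons of the vertebrate forebrain and of other brain regions: the T-box factors tbr1b, eomesa and eomesb, the neurod factors neurod1, neurod2, neurod4, neurod6a and neurod6b, the related factor bhlhe22, and the homeobox factor emx3. The rule that picked them goes by gene name and uses no measured value, but the list was drawn up with earlier results of these data known. Of the 10 names, 5 matched a gene symbol directly, and for the other 5 the final paralog letter was dropped and every gene ID with that symbol was taken, which gave 10 gene IDs of the 32020 in the count tables. The names table does not say which of the 2 EOMES IDs or of the 2 NEUROD6 IDs is the a or the b copy, so these are given by symbol and ID, and the ID matched to tbr1b is written TBR1.

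The data are bulk RNA-seq counts from 19 libraries of 2 zebrafish lines, each library made from the head of a single larva, without its eyes. The scn1lab line carries a deletion allele (Δ44) of a voltage-gated sodium channel gene and gave 3 libraries each of homozygous mutants (HOM), heterozygotes (HET) and wild types (WT). The dyrk1a line carries deletion alleles of both zebrafish copies of the kinase gene DYRK1A (dyrk1aaΔ77 and dyrk1abΔ8) and gave 4 HOM, 3 HET and 3 WT libraries. All larvae, WT included, came from incrosses of heterozygous fish and were matched as siblings or cousins. No treatment is labelled, larval age is not given in the sources used here, and the dyrk1a labels do not give the genotype of each copy. The labels do not say which heads shared a clutch, so p-values measure the spread between single heads. HOM and HET are set against the same 3 WT libraries within a line, and the lines share no library.

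Factors of the neurod family are basic helix-loop-helix proteins that act late in the neurogenic cascade, after proneural factors such as neurog1 and atoh1 have committed a progenitor, and drive exit from the cell cycle and neuronal differentiation. In the mouse cerebral cortex, cells pass in order through EOMES in intermediate progenitors, then neurod factors, then TBR1 in postmitotic projection neurons. In fish the pallium, the dorsal part of the telencephalon, expresses the counterparts of these genes, and emx3 marks pallial territory. Several members have further sites: neurod1 and neurod4 are also expressed in the retina, and neurod1 in the pineal gland, the pituitary and the endocrine pancreas.

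Library totals ran from 15.1 to 29.88 M counts. The tissue label reads whole brain, and all 26 IDs of a list of general neuronal genes passed the filter on low counts, but other tissues contributed unequally. Genes of the exocrine pancreas, gut and liver took 11.3%, 0.0416% and 14.5% of all counts in scn1lab HOM libraries 1 to 3, 2.68%, 12% and 1.09% in scn1lab HET, and 0.0527% to 0.686% in scn1lab WT. In the dyrk1a line this share was at most 5.23%, in HET library 4. The general neuronal list took 0.224% to 0.452% of counts in scn1lab HOM, 0.196% to 0.504% in scn1lab HET and 0.792% to 1.02% in scn1lab WT, against 1.09% to 1.55% over all dyrk1a libraries. The column names of the scn1lab tables carry a date-like tag that those of dyrk1a do not, so the line and whatever the tag marks cannot be told apart. Transcripts of the targeted genes do not check the labels closely, since a small deletion need not lower the transcript: the scn1lab transcript averaged 12.8 ± 5.54 CPM in HOM heads of its line, 10.7 ± 5.31 CPM in HET heads and 17.0 ± 1.49 CPM in WT heads (SD, n = 3 each), and neither of the 2 DYRK1A IDs (ENSDARG00000023814 and ENSDARG00000063570) was lower in dyrk1a HOM (47.0 ± 9.16 and 17.0 ± 7.82 CPM, n = 4) than in WT (36.8 ± 1.52 and 12.5 ± 4.65 CPM, n = 3). Levels are given as CPM, each gene's counts as a share of the library's total in the usual unit, with the totals scaled by TMM (trimmed mean of M-values) over all 19 libraries. Since transcript length was not used, levels are compared between libraries and not between genes.

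Every member was detected in each of the 6 groups, and all 10 passed the filter in the fit of each line. Raw counts per library ran from 145 to 8768 for 8 of the members. They were lower for neurod4, with 40 to 864, and for EOMES (ENSDARG00000104243), with 0 to 104. When the 6 groups are ordered by mean CPM, neighbouring groups overlapped at every step for TBR1, neurod1, neurod2, neurod4, NEUROD6 (ENSDARG00000040008) and emx3. Gaps without overlap stood at 1 step for EOMES (ENSDARG00000006640), NEUROD6 (ENSDARG00000020794) and bhlhe22 and at 2 steps for EOMES (ENSDARG00000104243). The share of all genes with such gaps was not computed, so nothing particular to the members is read from these steps. The lowest group mean was that of scn1lab HET for 5 members and that of scn1lab HOM for 3, and for neurod2 and emx3 it was that of dyrk1a HET.

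**Figure D1:**
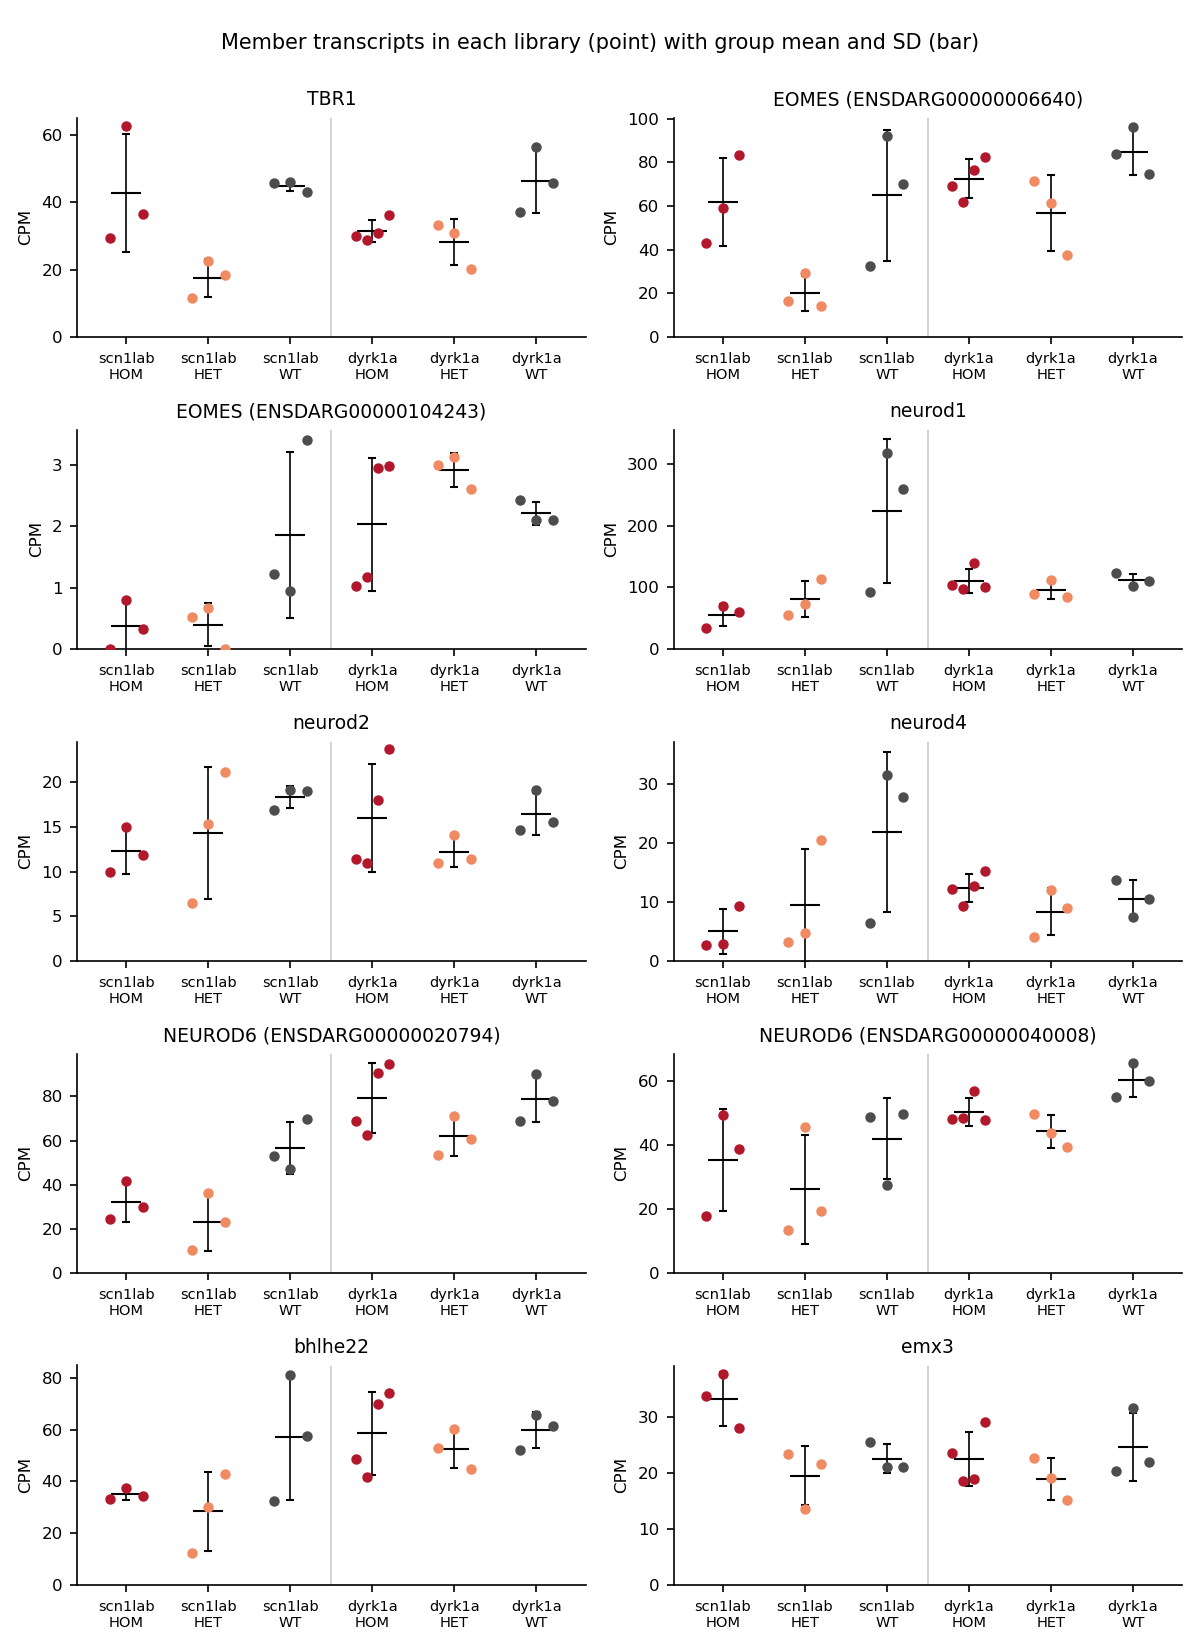
CPM of each member (y axis, linear from 0) by genotype group (x axis), with 1 point per library and bars for the group mean ± SD; scn1lab groups are left of the grey line and dyrk1a groups right of it. neurod1 reached 319 CPM in scn1lab WT and stayed at or under 69.4 CPM in scn1lab HOM, TBR1 was lowest in scn1lab HET, and the dyrk1a groups lay closer together.

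In scn1lab HOM heads against WT heads, neurod1 and neurod4 averaged 0.243 and 0.229 of the WT level, EOMES (ENSDARG00000104243) was low throughout, TBR1 had similar means, and emx3 was the only member with a positive log2 change. None of the 10 members passed an adjusted p of 0.05 in edgeR's quasi-likelihood test (Benjamini-Hochberg over all genes tested), in a comparison where 1 gene of 21466 did (0.00466%) and 4057 had an unadjusted p under 0.05; neurod1 and neurod4 were the 2 members with an unadjusted p under 0.05. Log2 changes were negative for 9 members and positive for 1, with a median of -0.64 beside 0.09 over all genes tested. By non-overlap of libraries, 4 of 10 members lay below every WT library, against 18.3% of all genes tested, and 1 of 10 above every WT library, against 18.2%.

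Among the pallial factors, TBR1 had 29.3, 62.5 and 36.4 CPM in scn1lab HOM libraries 1 to 3, against 45.5, 45.9 and 43.1 CPM in WT. The WT heads were nearly equal and the HOM heads lay on either side of them, with the high HOM value in library 2, the HOM library with the low digestive share. The log2 change was -0.07 (SE 0.34, adjusted p = 0.935), and it was 0.48 (adjusted p = 0.32) when the libraries with over 2% digestive counts were left out; HOM library 2 is then alone in its group and is assumed to vary like the others. EOMES (ENSDARG00000006640) had 43.0, 59 and 83.2 CPM in HOM, against 32.7, 92.2 and 69.9 CPM in WT, so that the groups overlapped throughout (log2 change -0.07, SE 0.43, adjusted p = 0.948). EOMES (ENSDARG00000104243) had 0, 17 and 5 counts in HOM libraries, against 31, 26 and 104 in WT. Every HOM library was below every WT library, but at these counts the log2 change of -2.27 carried an SE of 1.41 (adjusted p = 0.407), and a count of 0 allows up to 3 counts. The homeobox gene emx3 had 33.8, 37.6 and 28.1 CPM in HOM, against 25.6, 21.1 and 21.0 CPM in WT. All HOM heads were above all WT heads, with a log2 change of 0.56 (SE 0.27, adjusted p = 0.295).

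The neuronal differentiation factor neurod1 had 34.6, 69.4 and 59.6 CPM in scn1lab HOM libraries 1 to 3, against 93.1, 319 and 260 CPM in WT libraries 1 to 3. Every HOM head was below every WT head, and WT libraries 2 and 3 stood well above WT library 1. The mean was 54.5 ± 17.9 CPM in HOM and 224 ± 117 CPM in WT (SD, n = 3 each), a log2 change of -2.04 (SE 0.49, adjusted p = 0.156). This call depended on the test and on the libraries in the fit: neurod1 passed with DESeq2 (log2 change -2.08, adjusted p = 0.00393), where 7.33% of all genes passed, and with all 19 libraries in 1 edgeR fit (log2 change -2.04, adjusted p = 0.0103), where 5.68% passed. With only the 6 compared libraries in the fit, its adjusted p was 0.0546. With HOM library 2 as the only HOM library, after the same exclusion as for TBR1, the log2 change was -1.69 (SE 0.81, adjusted p = 0.382). No other member passed in this comparison with either of those tests.

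Its relative neurod4, a factor of retinal and other neurogenesis, had 2.77, 2.86 and 9.4 CPM in HOM, against 6.43, 31.5 and 27.8 CPM in WT. HOM library 3 lay above WT library 1, so the groups overlapped, and the high values again were WT libraries 2 and 3. The log2 change was -2.13 (SE 0.87, adjusted p = 0.237). The forebrain factor neurod2 had 10, 15 and 11.9 CPM in HOM, against 16.9, 19.1 and 19 CPM in WT, and its groups did not overlap (log2 change -0.57, SE 0.40, adjusted p = 0.466). NEUROD6 (ENSDARG00000020794), the counterpart of a gene of postmitotic cortical excitatory neurons in the mouse, had 24.3, 41.9 and 29.7 CPM in HOM, against 53.0, 46.9 and 69.9 CPM in WT. These groups did not overlap either, with a log2 change of -0.82 (SE 0.43, adjusted p = 0.327). The other NEUROD6 ID (ENSDARG00000040008) had 17.8, 49.3 and 38.8 CPM in HOM, against 48.7, 27.4 and 49.7 CPM in WT, with overlap and a log2 change of -0.25 (SE 0.51, adjusted p = 0.83). The related factor bhlhe22, which shapes area identity in the mouse cortex and is also made in retina and spinal cord, had 33.3, 37.6 and 34.2 CPM in HOM, against 32.6, 81.1 and 57.6 CPM in WT. Its HOM heads were nearly equal and reached only the lowest WT head (log2 change -0.70, SE 0.45, adjusted p = 0.42).

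**Figure D2:**
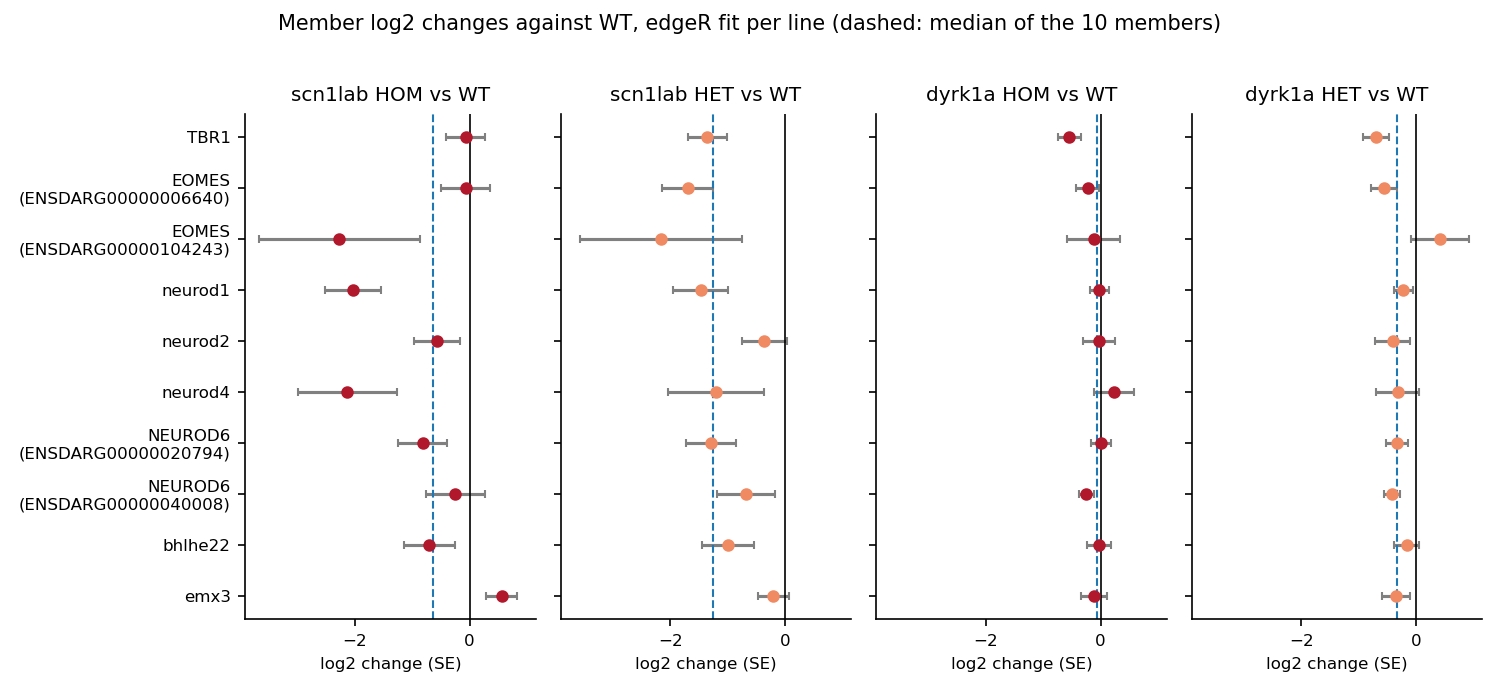
Log2 change of each member (x axis, points with ± 1 SE) in HOM and HET heads against WT heads of each line; the dashed line is the median of the 10 members and the solid line is 0. The medians were -0.64 and -1.25 in scn1lab HOM and HET and -0.07 and -0.34 in dyrk1a HOM and HET, and no point passed an adjusted p of 0.05 in edgeR.

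The WT libraries with the high neurod1 and neurod4 values were also those with the most photoreceptor RNA. A list of 35 photoreceptor and pineal IDs took 0.00725%, 0.0926% and 0.0131% of counts in scn1lab HOM libraries 1 to 3, and 0.0055%, 1.16% and 0.837% in WT libraries 1 to 3. In WT libraries 2 and 3 all 35 IDs had counts, and in WT library 1, 26 of them did. In HOM libraries, 27 to 31 had counts, and opn1lw1 and nrl were at 0 in all 3. These zeros are not particular to HOM. Both genes were also at 0 in every dyrk1a HOM and HET library, opn1lw1 in every scn1lab HET library, and nrl in every dyrk1a WT library and in scn1lab WT library 1. In WT library 1, whose photoreceptor share was the lowest of the 19 libraries, neurod1 was at 93.1 CPM, above the 34.6 to 69.4 CPM of the HOM libraries, whereas neurod4 was at 6.43 CPM, within the 2.77 to 9.4 CPM of HOM. Genes of the pituitary, another site of neurod1, took 0.00207% to 0.00293% of counts in HOM and 0.0078% to 0.0218% in WT, without overlap, and genes of the endocrine pancreas took 0.00466% to 0.0198% in HOM and 0.00866% to 0.0137% in WT; their part in the neurod1 difference was not tested. With the log2 photoreceptor share as a covariate, chosen after seeing the data, the log2 change was -1.23 for neurod1 (adjusted p = 0.42) and -0.77 for neurod4 (adjusted p = 0.773). Among the WT heads only library 1 had a share as low as those of HOM. In the dyrk1a line the same list took 0.0114% to 0.359% of counts in WT libraries and 0.0108% to 0.0297% in HOM libraries (median log2 change -2.76). There neurod1 averaged 112 CPM in WT heads and 110 CPM in HOM heads, and neurod4 averaged 10.6 CPM in WT and 12.4 CPM in HOM. The part of photoreceptor RNA in the neurod1 and neurod4 differences was not tested.

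**Figure D3:**
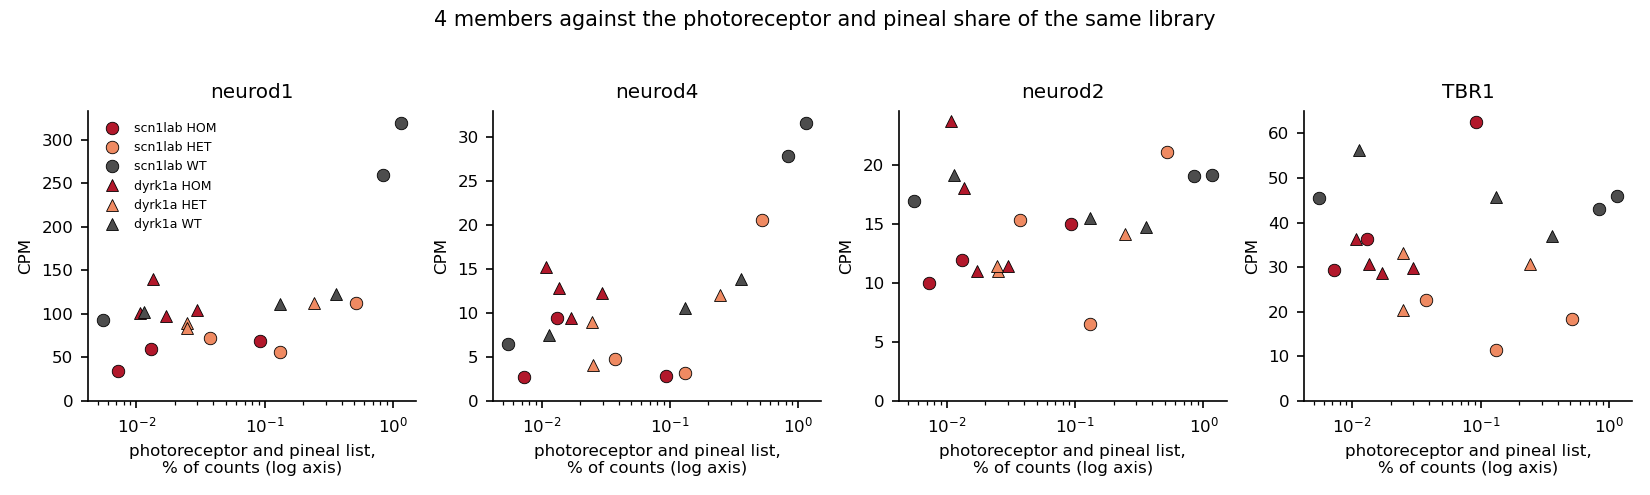
CPM of neurod1, neurod4, neurod2 and TBR1 (y axes, linear from 0) against the share of counts of the photoreceptor and pineal list in the same library (x axis, percent, log scale), for scn1lab libraries (circles) and dyrk1a libraries (triangles). The highest neurod1 and neurod4 values, 319 and 31.5 CPM, are in the scn1lab WT library with a share of 1.16%, and TBR1 reached 62.5 CPM at a share of 0.0926%.

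In scn1lab HET heads against WT heads, all 10 members had a negative log2 change, and TBR1 and EOMES (ENSDARG00000006640) averaged 0.39 and 0.307 of the WT level. None passed in edgeR, where 0 of 21466 genes did (0%) and 2833 had an unadjusted p under 0.05, 4 of the members among them. The median was -1.25, beside 0.06 over all genes. By non-overlap, 4 of 10 members lay below every WT library, against 11% of all genes, and 0 of 10 above, against 9.79%. TBR1 had 11.5, 22.6 and 18.4 CPM in HET libraries 1 to 3, against 43.1 to 45.9 CPM in WT. All HET heads were far below the closely grouped WT heads, with a log2 change of -1.36 (SE 0.34, adjusted p = 0.341). EOMES (ENSDARG00000006640) had 16.7, 29.2 and 14 CPM in HET, against 32.7, 92.2 and 69.9 CPM in WT, without overlap (log2 change -1.70, SE 0.44, adjusted p = 0.341).

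Both of these passed with DESeq2, at an adjusted p of 0.0482 for TBR1 and 0.0297 for EOMES (ENSDARG00000006640), where 1.57% of all genes passed. In a fit with only libraries of low digestive share, HET library 3 is the 1 left in its group and the spread comes from the 3 WT libraries alone, so the fit sets that head against WT. The log2 change was then -1.29 for TBR1 (adjusted p = 0.0265) and -1.31 for NEUROD6 (ENSDARG00000020794) (adjusted p = 0.0491), with 15.8% of all genes past the threshold and a median gene at -0.22. In the same fit neurod2 was at 0.2, so its sign was not kept. NEUROD6 (ENSDARG00000020794) had 10.2, 36.4 and 22.9 CPM in HET, against 46.9 to 69.9 CPM in WT, and EOMES (ENSDARG00000104243) had 13, 11 and 0 counts in HET, against 26 to 104 in WT; both were below every WT library. The neurod1 transcript had 55.9, 72.8 and 113 CPM in HET, against 93.1, 319 and 260 CPM in WT, and HET library 3, with the most photoreceptor RNA of the HET heads (0.519%), was also the highest of them for neurod1, neurod2, neurod4 and bhlhe22. The smallest difference was that of emx3, with 23.4, 13.6 and 21.6 CPM in HET heads and 21.0 to 25.6 CPM in WT (log2 change -0.21).

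In scn1lab HOM heads against HET heads, the members with the largest log2 changes were TBR1 and EOMES (ENSDARG00000006640), both higher in HOM. Again no member passed in edgeR (1 gene of 21466, 0.00466%, did, and 915 had an unadjusted p under 0.05, 3 members among them), and DESeq2 called none of the 10 (smallest adjusted p 0.156). The members' median log2 change was 0.36, beside 0.01 over all genes. Every HOM library was above every HET library for 3 of 10 members, TBR1, EOMES (ENSDARG00000006640) and emx3, against 4.97% of all genes, and below for 0 of 10, against 2.9%. TBR1 averaged 42.7 ± 17.5 CPM in HOM and 17.5 ± 5.60 CPM in HET (SD, n = 3 each), a log2 change of 1.29 (SE 0.34, adjusted p = 0.945). The same EOMES ID averaged 61.7 ± 20.2 CPM in HOM and 20 ± 8.08 CPM in HET, a log2 change of 1.63 (SE 0.44, adjusted p = 0.945). For emx3 the means were 33.2 ± 4.79 CPM in HOM and 19.5 ± 5.17 CPM in HET, a log2 change of 0.76 (SE 0.27, adjusted p = 0.945). The neurod1 difference had the other sign, -0.57 (SE 0.47). With only the low-digestive libraries, HOM library 2 and HET library 3 are set against each other and the spread comes from the 3 WT libraries alone, so the fit compares these 2 heads and not the genotypes. Its TBR1 log2 change was 1.77 (adjusted p = 0.0439), and 3.25% of all genes were past the threshold.

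In dyrk1a HOM heads against WT heads the members' means lay close together, and the difference with the smallest p was in TBR1. No member passed in edgeR, where 0 of 21025 genes did (0%) and 1640 had an unadjusted p under 0.05, 1 member among them, nor with DESeq2, which called 162 genes (smallest adjusted p of a member 0.34). Log2 changes ran from -0.55 to 0.23, with a median of -0.07 beside 0.01 over all genes. TBR1 had 29.9, 28.7, 30.7 and 36.3 CPM in HOM libraries 1, 2, 3 and 5, against 37.0, 56.2 and 45.7 CPM in WT libraries 1, 2 and 4. All HOM heads were below all WT heads, the highest HOM head by a small margin (log2 change -0.55, SE 0.20, adjusted p = 0.568). TBR1 was the 1 member of 10 below every WT library, against 3.64% of all genes, and 0 of 10 were above, against 4.06%. The other tbr1 ID, tbr1a (ENSDARG00000076259), is not a member. It averaged 0.701 ± 0.12 CPM in HOM (n = 4) and 2.73 ± 1.61 CPM in WT (n = 3), with a log2 change of -1.95 (SE 0.60, adjusted p = 0.515). Every HOM head was below every WT head, but only just: the highest HOM head had 0.85 CPM and the lowest WT head 0.872 CPM. In dyrk1a HET heads tbr1a had 0.68 to 1.65 CPM, which overlapped the 0.872 to 3.76 CPM of WT. In the scn1lab line it had 2.43 to 3.18 CPM in HOM, 0.183 to 1.5 CPM in HET and 3.02 to 4.59 CPM in WT, with HET below both without overlap. Levels this low are limited by depth, so little is read from these orders.

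Of the neurod factors in dyrk1a heads, neurod1 had 104, 97.3, 140 and 101 CPM in HOM, against 123, 102 and 111 CPM in WT, and the WT values lay within the HOM range. Its log2 change was -0.02 (SE 0.16, adjusted p = 0.994). NEUROD6 (ENSDARG00000040008) had 48.1, 48.4, 56.7 and 47.7 CPM in HOM, against 55.1, 65.7 and 59.8 CPM in WT. Only HOM library 3 reached into the WT range (log2 change -0.25, SE 0.13, adjusted p = 0.687). The remaining members overlapped between HOM and WT, with log2 changes of -0.22 for EOMES (ENSDARG00000006640), -0.12 for EOMES (ENSDARG00000104243) and for emx3, -0.02 for neurod2 and for bhlhe22, 0.01 for NEUROD6 (ENSDARG00000020794) and 0.23 for neurod4, and with SEs of 0.18 to 0.46.

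In dyrk1a HET heads against WT heads 9 members had a negative and 1 a positive log2 change, with a median of -0.34 beside 0.01 over all genes. No member passed in edgeR (0 of 21025 genes, 0%, did, and 700 had an unadjusted p under 0.05, 3 members among them) or with DESeq2, which called 28 genes (smallest adjusted p of a member 0.488). Below every WT library lay 4 of 10 members, TBR1, EOMES (ENSDARG00000006640), neurod2 and NEUROD6 (ENSDARG00000040008), against 6.5% of all genes. Above every WT library lay 1 of 10, EOMES (ENSDARG00000104243), with 3.01, 3.14 and 2.61 CPM in HET heads and 2.43, 2.1 and 2.11 CPM in WT, against 5.52% of all genes. The general neuronal list was lower in these heads too, at 1.14% to 1.35% of counts in HET and 1.47% to 1.51% in WT. Of its 26 IDs, 6 lay below every WT library and 0 above (median log2 change -0.12). The part of general neuronal RNA in the members' differences was not tested. TBR1 had 33.2, 30.7 and 20.3 CPM in HET libraries 2, 3 and 4, against 37.0, 56.2 and 45.7 CPM in WT (log2 change -0.70, SE 0.22, adjusted p = 1). The lowest HET head was library 4, the dyrk1a library with the high digestive share, and without it the TBR1 log2 change was -0.54. EOMES (ENSDARG00000006640) had 71.5, 61.5 and 37.4 CPM in HET, against 74.6 to 96.3 CPM in WT, with library 4 again the lowest HET head (log2 change -0.56, SE 0.22, adjusted p = 1). Without library 4 the log2 change of this EOMES ID was -0.35 (SE 0.19). Between dyrk1a HOM and HET heads, 0 of 10 members passed in edgeR (0 of 21025 genes, 0%, did, and 1389 had an unadjusted p under 0.05, 0 members among them) or with DESeq2 (157 genes called), and the members' median log2 change was 0.22.

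The differences between the lines were tested in 1 fit of all 19 libraries, as the dyrk1a effect minus the scn1lab effect. For HOM, no member passed in edgeR, where 6 of 22488 genes did (0.0267%) and 2428 had an unadjusted p under 0.05, 2 members among them, and the members' median was 0.61 beside -0.04 over all genes. The largest member differences were 2.35 for neurod4 (SE 0.94, adjusted p = 0.389), 2.14 for EOMES (ENSDARG00000104243) (SE 1.34, adjusted p = 0.583) and 2.02 for neurod1 (SE 0.50, adjusted p = 0.306). With DESeq2 neurod1 passed (adjusted p = 0.0173), where 1.16% of all genes did, so whether its HOM effect differed between the lines also depended on the test. For TBR1 the difference was -0.49 (SE 0.39, adjusted p = 0.687). For HET, no member passed in edgeR (1 gene of 22488, 0.00445%, did, and 1377 had an unadjusted p under 0.05, 2 members among them) or with DESeq2 (92 genes called, smallest adjusted p of a member 0.564). The HET median was 0.85 beside -0.01 over all genes, with 1.24 for neurod1 (SE 0.51) and 1.12 for EOMES (ENSDARG00000006640) (SE 0.50), both at an adjusted p of 0.806. With only the low-digestive libraries, EOMES (ENSDARG00000104243) had an adjusted p of 0.0257 for HET, with 7.98% of all genes past the threshold. That value rests on 1 scn1lab HET library with 0 counts of the gene, so no fold is given and nothing is read from it about the HET effects.

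Other genes of neurons and of neurogenesis, from lists that left the members out, had negative median log2 changes in scn1lab HOM heads, and none passed in edgeR in either line. In a bulk sample, fewer cells of a type and less RNA per cell cannot be told apart. Of the 26 general neuronal IDs, 22 lay below every WT library in scn1lab HOM and 0 above, with a median log2 change of -1.34, where 18.3% of all genes lay below and 18.2% above. HOM library 2, with the low digestive share, also lay below, at 0.452% of counts for the list against 0.792% to 1.02% in WT. Skin genes took 6.53% of counts in that library, against 2.41% to 4.2% in WT. The part of digestive or skin RNA in the lower neuronal share was not tested. In scn1lab HET, 8 of 26 lay below and 0 above, where 11% of all genes lay below and 9.79% above, and the median was -0.68. SNAP25 (ENSDARG00000058117), a protein of synaptic vesicle fusion, averaged 105 ± 17.2 CPM in scn1lab HOM heads, 173 ± 93.5 CPM in HET heads and 454 ± 132 CPM in WT heads (SD, n = 3 each; HOM against WT log2 change -2.11, adjusted p = 0.154). Beside this the members' medians were -0.64 in HOM and -1.25 in HET. The other neuronal lists, described below, also had negative medians in scn1lab HET. These were -1.43 for glutamate release and uptake, -1.07 for cerebellum and rhombic lip, -0.97 for GABAergic, -0.68 for pallium and telencephalon and -0.62 for proneural factors. The HET median of the members is thus not read as particular to them. Lists of other cell types differed too. In scn1lab HOM, 5 of 10 oligodendrocyte IDs lay below every WT library and 0 above (median -1.14), and 5 of 15 radial astroglia IDs below and 0 above (median -0.57). Radial astroglia genes took 0.186% to 0.351% of counts in HOM libraries, against 0.518% to 0.717% in WT libraries. Of 13 skin IDs, 0 lay below and 11 above (median 1.11). The part of these tissues in the members' differences was not tested.

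For glutamate release and uptake, 5 of 11 IDs lay below every WT library in scn1lab HOM and 1 above, with a median log2 change of -1.26. For this list and the next ones in scn1lab HOM, 18.3% of all genes lay below and 18.2% above. The list includes SLC1A2, an uptake transporter found largely in glia, so its counts are not read as neuronal release alone. SLC1A2 (ENSDARG00000102453) averaged 117 ± 27.4 CPM in HOM heads and 412 ± 200 CPM in WT heads, without overlap. SLC17A6 (ENSDARG00000041150), a vesicular glutamate transporter, averaged 63.0 ± 3.81 CPM in HOM heads, 57.2 ± 24.9 CPM in HET heads and 151 ± 21.7 CPM in WT heads (HOM against WT log2 change -1.26, SE 0.33, adjusted p = 0.16). Among the 26 proneural and differentiation factors, of which 25 passed the filter, 15 were below every WT library in scn1lab HOM and 0 above (median -1.01); SCRT1, a repressor in differentiating neurons, had a log2 change of -1.98 (SE 0.47, adjusted p = 0.156) and EBF3 one of -1.78 (SE 0.40, adjusted p = 0.156). Of the 20 pallial and telencephalic IDs, of which 19 passed the filter, 11 were below and 1 above (median -0.60), with FOXP2 at -1.14 (SE 0.31, adjusted p = 0.16) and LHX9 at -1.20 (SE 0.44, adjusted p = 0.205). Of 20 cerebellar and rhombic lip IDs, 11 were below and 1 above (median -1.19), with BARHL2 at -1.90 (SE 0.52, adjusted p = 0.16). Of 27 IDs listed for GABAergic, that is inhibitory, neurons, 26 passed the filter. Of these, 10 were below and 1 above (median -0.72), with TAL1 at -1.89 (SE 0.40, adjusted p = 0.155). TAL1 and some other genes of this list are also expressed outside inhibitory neurons. In dyrk1a HOM heads the medians of these 6 lists ran from -0.29 to 0.20. Of the proneural factors, 3 of 25 lay above every WT library and 1 below, where 4.06% of all genes lay above and 3.64% below. There SOX4 (ENSDARG00000098834), expressed in newly formed neurons, was above every WT library (log2 change 0.81, SE 0.23, adjusted p = 0.466) and so was HES6 (ENSDARG00000007097) (log2 change 1.2, SE 0.38, adjusted p = 0.52). In the same heads 11 of 18 cycling-cell IDs lay above every WT library and 0 below (median 1.3), and the part of those cells in these differences was not tested.

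Since every scn1lab HOM library had a smaller share of general neuronal RNA than every WT library, the members were also expressed per 1000 counts of that list in the same library. On this scale 0 of 10 members lay below every WT library in scn1lab HOM, against 2.39% of all genes, and 3 of 10 lay above, against 58.6% of all genes. The share above is smaller than that of all genes, so nothing particular to the members is read from it. TBR1 had a mean of 11.1 ± 3.07 counts per 1000 in HOM heads, 3.80 ± 1.05 in HET heads and 5.87 ± 0.695 in WT heads (SD, n = 3 each). For emx3 the means were 8.83 ± 0.521 in HOM heads, 5.11 ± 4.09 in HET heads and 2.95 ± 0.46 in WT, and for neurod2 the values were 3.27 ± 0.418 in HOM heads, 2.83 ± 0.274 in HET heads and 2.39 ± 0.252 in WT heads. In all 3 genes every HOM head was above every WT head. For neurod1 the means were 14.5 ± 4.32 in HOM heads, 17.6 ± 5.55 in HET heads and 29.3 ± 16.3 in WT, with overlap. STMN1 IDs held 43.0% to 48.4% of the list's counts in HOM and 34.1% to 39.1% in WT; without them, an alternative chosen after seeing the data, 5 of 10 members were above every WT library, against 65% of all genes. Over the geometric mean of the list, also chosen after seeing the data, 5 of 10 were above, against 62% of all genes.

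**Figure D4:**
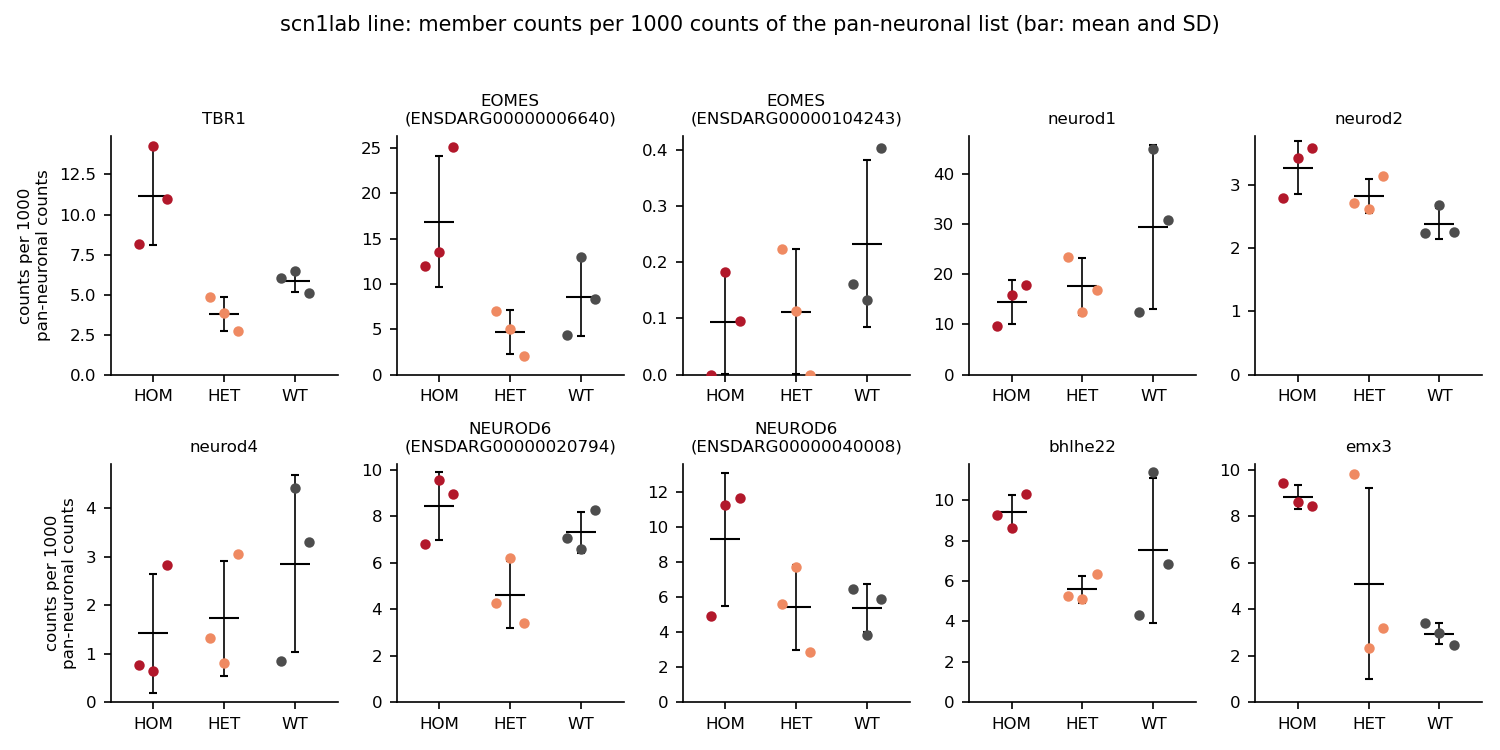
Member counts per 1000 counts of the general neuronal list (y axis, linear from 0) in scn1lab HOM, HET and WT libraries (x axis), with 1 point per library and bars for the mean ± SD. TBR1, neurod2 and emx3 are above every WT library in HOM on this scale, as 58.6% of all genes are, and neurod1 and neurod4 are not.

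Over the 19 libraries and 16345 genes, the genes most like the mean of the 10 members in pattern were sprn2 (Pearson r of log2(CPM + 1) = 0.905), SARM1 (0.902), PCYOX1L (0.896), ADGRB1 (ENSDARG00000078529, 0.888) and SPON1 (ENSDARG00000010029, 0.884). SARM1 is an enzyme of axon degeneration and ADGRB1 an adhesion receptor of the brain. ADGRB1 averaged 11.1 ± 4.87 CPM in scn1lab HOM heads, 7.53 ± 5.01 CPM in HET heads and 27.3 ± 6.35 CPM in WT heads, and its dyrk1a group means lay between 25.2 and 30.9 CPM. The genes most like TBR1 were GRM2 (ENSDARG00000007195, 0.814), a metabotropic glutamate receptor, and SP9 (0.785), a factor of inhibitory neurons. SP9 averaged 53.5 ± 13.6 CPM in scn1lab HOM heads, 21.3 ± 10.1 CPM in HET heads and 49.3 ± 15.3 CPM in WT heads. Its HET mean was below those of HOM and WT, as in TBR1. Unlike in TBR1, the HET and WT libraries of SP9 overlapped, at 14.3 to 32.9 CPM and 31.8 to 59.6 CPM. Among the genes most like neurod1 was ANP32E (0.902). These likenesses describe libraries that share line, depth and tissue makeup, and no test was made of them.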

How the data were processed

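Raw gene counts were deposited as 1 table per library, whole numbers without scaling for the same 32020 gene IDs. Per the submitters' processing notes, the tools named are Trim Galore 0.5.0, HISAT2 2.1.0, StringTie 1.3.3b and DESeq2 1.22.1 with GRCz11; the counting settings and strand use are not given in the sources used here. Per the labels' protocols, RNA came from either of 2 kits, which are not assigned to libraries and so entered no fit. Symbols came from the supplied names table, which names 28975 IDs.

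After filterByExpr and TMM scaling, counts were tested in R 4.3.3 with edgeR 4.0.16 by robust quasi-likelihood F tests (two-sided, Benjamini-Hochberg over all genes, threshold 0.05), with 1 fit per line and 1 fit of all 19 libraries for differences between lines. Library totals ran from 15.1 to 29.88 M counts. DESeq2 1.42.0 was an alternative test. Fits were checked on counts simulated with the same dispersion for every gene and no tissue differences. That check does not cover the uneven tissue makeup of these libraries. The other alternatives were normalization, filters, libraries in the fit, covariates, a replicate block and leaving out each library. Likeness used log2(CPM + 1) of genes with a mean of at least 1 CPM. The limit of 3 counts beside a count of 0 covers counting error only. No library pair agreed within sampling noise (lowest chi-square per degree of freedom 35.6). The members and gene lists were chosen with earlier results of these data known. Of 358 listed names, 225 matched directly, 105 without their paralog letter and 28 not at all. All members are named, other listed genes by smallest unadjusted p in HOM against WT (at most 3 per list), and the most like genes by Pearson r. tbr1a, STMN1, SNAP25 and other listed genes fall under this rule or are given because a result turns on them. Some genes that this rule names are not reported here.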

Additional observations from a re-analysis of the deposited data

Results flagged for a closer look

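In the group of 4 dyrk1a HOM libraries, 1 library stood far from the other 3 for 2 members. For neurod1, HOM library 3 had 140 CPM and the others 97.3 to 104 CPM, and its gap to the nearest of them was 0.852 of the group's whole range. For NEUROD6 (ENSDARG00000040008), the same library had 56.7 CPM and the others 47.7 to 48.4 CPM, a gap of 0.929 of the range. The tissue makeup of HOM library 3 differed too. Skeletal muscle genes took 0.526% of its counts, against 1.69% to 3.46% in the others. Proneural factors took 0.342%, against 0.204% to 0.237%, and radial astroglia genes 1.17%, against 0.762% to 0.794%. The part of this makeup in the gaps was not tested. The limit above which a gap was singled out is passed by chance in about 1 of 20 groups of this size, and 10 members were examined. Without this library the neurod1 log2 change in dyrk1a HOM against WT was -0.14.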

How the results depend on the processing

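No member was called in any of the 8 comparisons in edgeR, against 1 with DESeq2 in scn1lab HOM against WT (neurod1), 2 in scn1lab HET against WT (TBR1 and EOMES (ENSDARG00000006640)) and 1 in the HOM difference between lines (neurod1). All 19 libraries in 1 fit gave 1 in scn1lab HOM against WT (neurod1). Without the libraries of high digestive share, 2 were called in scn1lab HET against WT, 1 in scn1lab HOM against HET and 1 in the HET difference between lines. These last 4 calls rest on lone libraries (scn1lab HOM 2 and HET 3) and on the spread of the other groups. The cause was not tested. Over all genes the calls moved more: scn1lab HOM against WT had 1 in edgeR, 1574 with DESeq2, 1278 with all 19 libraries, 2077 with only the compared groups, 4 without a filter, 2 with the replicate block and 0 with the digestive, pan-neuronal or photoreceptor covariate or when the high-digestive libraries were left out. In scn1lab HET against WT these were 0 in edgeR, 338 with DESeq2, 52 with all 19 libraries and 3564 once the high-digestive libraries were left out. DESeq2 called 58 genes in scn1lab HOM against HET (edgeR 1, or 733 without those libraries), 260 in the HOM difference (edgeR 6, or 46 with only the compared groups and 16 without those libraries) and 92 in the HET difference (edgeR 1, or 0 to 3 in the other fits with all libraries or the compared groups and 1878 without those libraries). In dyrk1a HOM against WT, HET against WT and HOM against HET, edgeR called 0 and DESeq2 162, 28 and 157. Leaving out each library in turn, neurod1 in scn1lab HOM against WT ran from -2.55 to -1.8 and neurod4 from -2.96 to -1.84.

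Signs changed only for log2 changes that passed no threshold. In scn1lab HOM against WT, the pan-neuronal covariate gave 0.6 for TBR1, 0.01 for EOMES (ENSDARG00000006640), 0.51 for neurod2, 0.36 for NEUROD6 (ENSDARG00000020794), 0.82 for NEUROD6 (ENSDARG00000040008) and 0.25 for bhlhe22. The libraries of low digestive share gave 0.48 for TBR1 and 0.23 for NEUROD6 (ENSDARG00000040008), and the digestive covariate gave 0.08 for TBR1. The photoreceptor covariate, chosen after seeing the data, gave 0.0 for TBR1 and 0.3 for EOMES (ENSDARG00000006640). Leaving out each library gave -0.6 to 0.14 for TBR1, -0.54 to 0.13 for EOMES (ENSDARG00000006640) and -0.73 to 0.07 for NEUROD6 (ENSDARG00000040008). In dyrk1a HOM against WT, the pan-neuronal covariate gave 0.01 for EOMES (ENSDARG00000104243), 0.03 for neurod1, 0.12 for neurod2 and 0.1 for bhlhe22, and the photoreceptor covariate gave 0.13 for neurod1 and -0.06 for NEUROD6 (ENSDARG00000020794). Leaving out each library there gave -0.37 to 0.09 for EOMES (ENSDARG00000104243), -0.14 to 0.06 for neurod1, -0.29 to 0.12 for neurod2, -0.1 to 0.11 for NEUROD6 (ENSDARG00000020794), -0.17 to 0.11 for bhlhe22 and -0.28 to 0.1 for emx3. In scn1lab HET against WT, neurod2 turned to 0.3 with the pan-neuronal covariate and to 0.2 without the high-digestive libraries, and NEUROD6 (ENSDARG00000040008) to 0.08 with that covariate. In dyrk1a HET against WT, bhlhe22 turned to 0.07 with it, and neurod4 was at 0.0 without HET library 2. The pan-neuronal score did not overlap there either, at 178 to 208 CPM in HET libraries and 215 to 228 CPM in WT.

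Per 1000 pan-neuronal counts, 0 members lay below and 3 above every WT library in scn1lab HOM, where 2.39% and 58.6% of all genes did. In CPM these were 4 and 1, where 18.3% and 18.2% of all genes did. Without STMN1, and over the geometric mean of the list, both chosen after seeing the data, 5 lay above, where 65% and 62% of all genes did. Leaving out each library gave 0 to 2 below and 3 to 6 above, where 2.8% to 5.37% of all genes lay below and 60.8% to 68.8% above.

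With the replicate number as a block (replicate block), 0 members were called in each comparison. EOMES (ENSDARG00000006640) was then at 0.02 in scn1lab HOM and NEUROD6 (ENSDARG00000020794) at -0.19 in dyrk1a HOM. Libraries with the same number share only a number: their deviations correlated at -0.288 to 0.141 over 9 scn1lab pairs and -0.163 to 0.218 over 6 dyrk1a pairs.

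With 3 or 4 heads a group, small differences cannot be bounded, and EOMES (ENSDARG00000104243), with at most 104 counts, is limited by depth.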
